A study of Rattus norvegicus with 12 samples.

Results

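Transcripts of the mitotic machinery were followed in the livers of newborn rats. The set held 52 genes named for their role in the spindle, the kinetochore, the mitotic checkpoint, chromosome condensation and cytokinesis. Of these, 42 genes had a probe on the array through the platform's gene symbol, out of 13327 genes with a probe in the whole series. Pttg1, Birc5, Cenpe, Spc24, Zwint, Smc4, Ncapg, Ncaph, Top2a and Anln had no probe under their symbol and were not analysed here. The 42 genes had 43 probes, as Kif11 had 2. A filter on the mean level over all livers kept 42 of these probes, from 41 genes, and left out the single Ccnb1 probe, whose levels lay between 0.10 and 0.23 in the 12 livers. The list follows function and was chosen with earlier results of these data known.

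Expression was measured with the Illumina RatRef-12 Expression BeadChip, a single-colour array on which beads carry gene probes, in individual livers of male Wistar rats aged 1 day. The 12 livers fell into 3 groups of 4 by the diet of the mother during pregnancy. These were a control diet (C), a diet low in protein (MLP) and the low protein diet with added folic acid (MLP-F). Per the study's methods, each diet was given to the mother of a single litter, so the pups of a group were littermates, diet and litter cannot be told apart, and each p-value measures the spread among littermates. No group received added folic acid with the control diet, which held folate as well, and pups were not treated themselves. Levels are on a re-expanded log2 scale, obtained from the deposited values as 2 to the power of the value minus 16. That this undoes the authors' last step is inferred from the values. A difference on this scale is about a log2 ratio of intensity and understates the change of dim probes.

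Mitosis divides the copied chromosomes between a pair of daughter cells. Cyclin-dependent kinase 1 with its cyclins starts it, condensins compact the chromosomes, kinesins and other microtubule proteins build the spindle, and the kinetochore ties each chromosome to it. The spindle checkpoint delays the anaphase-promoting complex until all chromosomes are attached, after which the central spindle guides cytokinesis. Hepatocytes of late fetal and newborn rat liver still divide, and the liver at that age also holds blood-forming cells, which divide too.

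Many of these genes are known to share a promoter layout in which a cell cycle genes homology region (CHR) lies close to the transcription start and CCAAT boxes lie upstream of it. RefSeq promoters of build GRCr8, from 250 bases before to 50 bases after the start, were matched by symbol for 34 of the 41 kept genes. A CHR, searched as TTTGAA or TTCGAA on both strands, was found in 26 of them (76.47%), against 19.74% of all 33469 promoters. The CCAAT box, searched as CCAAT on both strands, was found in 24 (70.59%, against 37.49% of all), and both together in 20 (58.82%, against 7.954%). An E2F core, searched as TTCCCGC or GGCGGGAA on both strands, was found in 2 (5.882%, against 4.207%), those of Kif23 and Dlgap5. TTCGAA reads the same on both strands, each GGCGGGAA holds TTCCCGC on its other strand, and the CHR and CCAAT strings can overlap by a base. A match describes letters in a window and is not evidence of a bound site, and no test was made.

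The promoters of 6 genes that fell in MLP livers are printed from base -170 to base 30, where the base before the start is -1 and the start is 1, because they show the layout and its exceptions. They lie at chr20:19265123-19265322 (plus strand, Cdk1), chr3:74396689-74396888 (minus strand, Spc25), chr1:143659311-143659510 (plus strand, Prc1), chr8:93634469-93634668 (plus strand, Ttk), chr3:126254526-126254725 (plus strand, Knstrn) and chr18:26504252-26504451 (plus strand, Kif20a). Capitals mark CHR strings (TTTGAA, or TTCAAA where it lies on the other strand) and CCAAT boxes (CCAAT, or ATTGG on the other strand).
Cdk1: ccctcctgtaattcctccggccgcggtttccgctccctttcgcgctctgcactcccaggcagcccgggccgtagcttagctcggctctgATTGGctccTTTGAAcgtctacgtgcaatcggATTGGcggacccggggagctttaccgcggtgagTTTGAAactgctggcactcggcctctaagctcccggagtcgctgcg
Spc25: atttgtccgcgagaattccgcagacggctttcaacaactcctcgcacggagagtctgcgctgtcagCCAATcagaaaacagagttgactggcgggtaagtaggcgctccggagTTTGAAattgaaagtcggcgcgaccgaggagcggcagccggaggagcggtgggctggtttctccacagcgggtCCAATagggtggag
Prc1: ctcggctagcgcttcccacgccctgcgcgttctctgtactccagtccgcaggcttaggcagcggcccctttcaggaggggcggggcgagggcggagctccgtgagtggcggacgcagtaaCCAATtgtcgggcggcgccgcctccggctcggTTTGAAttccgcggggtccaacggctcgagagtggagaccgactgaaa
Ttk: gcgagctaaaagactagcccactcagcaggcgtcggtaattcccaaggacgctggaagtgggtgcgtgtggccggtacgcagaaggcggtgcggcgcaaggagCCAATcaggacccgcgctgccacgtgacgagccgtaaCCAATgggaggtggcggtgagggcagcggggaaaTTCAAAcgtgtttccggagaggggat
Knstrn: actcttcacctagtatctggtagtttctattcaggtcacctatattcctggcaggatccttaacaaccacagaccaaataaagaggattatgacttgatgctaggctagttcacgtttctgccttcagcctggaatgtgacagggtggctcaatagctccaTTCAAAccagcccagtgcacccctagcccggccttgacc
Kif20a: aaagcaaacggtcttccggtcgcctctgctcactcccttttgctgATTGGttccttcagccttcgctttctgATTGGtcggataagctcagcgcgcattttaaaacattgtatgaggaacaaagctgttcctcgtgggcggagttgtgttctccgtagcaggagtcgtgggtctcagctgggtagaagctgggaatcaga
Cdk1 had a CHR at -72 to -67 and another at -16 to -11. In Spc25 the CHR lay at -57 to -52, in Prc1 at -18 to -13, and in Ttk just after the start, at 5 to 10. Knstrn had a CHR at -9 to -4 and no CCAAT box in the whole window, while Kif20a had 3 CCAAT boxes, 1 of them upstream of the printed stretch, and no CHR.

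The comparison of MLP with C asks what a low protein diet of the mother did to the newborn liver. In MLP livers 18 of the 42 member probes had a lower level than in C at an adjusted p under 0.05 (limma, adjusted over 15753 probes) and 0 a higher one. Over all probes tested 2.08% were called lower and 2.27% higher, 4.35% in all. The median difference of the members was -0.55, against 0.00 for all probes, and 40 of the 42 lay below 0. In 32 members all 4 MLP livers lay below all 4 C livers, against 6.06% of all probes, and in 0 they lay above them (6.18%). The genes that fell came from every class, with 6 of 11 kept probes of the cyclins, kinases and their partners, 2 of 6 of the checkpoint and anaphase genes, 1 of 3 of the chromosomal passenger complex, 3 of 7 of the kinesins, 3 of 6 of the kinetochore, 1 of 4 of the spindle microtubule proteins, 1 of 2 of the condensins and 1 of 3 of the cytokinesis genes. A CHR was found in 84.62% of 13 promoters of members called lower here and in 71.43% of 21 promoters of the others. A CHR and a CCAAT box together were found in 61.54% and 57.14%. Kif11, called lower by its brighter probe, was counted with the others, by its dimmer probe. Its promoter held a CCAAT box and no CHR. Counted among the members called lower, it would narrow the first gap and turn the second round, so neither gap separates the groups. As these are whole livers, fewer dividing cells and less RNA per cell cannot be told apart.

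The number of calls moved with single livers. It ran from 7 without MLP replicate 2 to 27 without MLP-F replicate 3, which enters only through the shared spread, and 7 of the 18 calls (Cdk1, Ccna2, Pbk, Ttk, Kif20a, Spc25 and Smc2) were made in each of the 12 fits that leave out 1 liver. The calls of Kif11, Prc1, Aurkb and Cks2 were made in 2, 3, 4 and 4 of these fits. Kif15 and Nuf2 were called in 5 fits, Ube2c in 6, Cks1b and Hmmr in 8, Cdca3 in 9 and Knstrn in 11. For genes described below whose call was lost in such fits, the liver whose absence gave the highest adjusted p is named. It need not be the only liver without which the call was lost. A bracketed value after a difference is its adjusted p from limma, and ± gives its SE. A pair of C livers stood apart in transcripts of other tissues. C replicate 4 had a median level of 4.86 over the skeletal muscle markers, against at most 0.30 in the other 11 livers, and C replicate 1 had 4.08 over stellate cell and fibroblast markers and 1.55 over epidermal ones, against at most 2.76 and 0.20 elsewhere. Without these 2 livers the median difference of the members was -0.63, and 2 members, Kif20a and Smc2, kept an adjusted p under 0.05, with 211 probes called in all in place of 685. Hepatocyte markers had medians of 7.16 to 7.71 in all 12 livers.

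Blood-forming cells were followed through 16 erythroid marker probes. Of these, 3 were lower (Ahsp, Tfrc and Car2) and 2 higher (Alas2 and Hbe1) in MLP than in C, the median difference was -0.19, and their summed level lay between 44.6 and 48.8 (C), 43.7 and 48.0 (MLP) and 43.4 and 47.8 (MLP-F). Of 9 macrophage markers 1 was higher (C1qc), with sums of 17.5 to 18.2 (C), 17.9 to 21.6 (MLP) and 17.4 to 19.7 (MLP-F). Their median levels were 1.28 to 1.51 (C), 1.20 to 2.54 (MLP) and 1.89 to 2.47 (MLP-F), so that C and MLP-F did not overlap. The median difference was 0.18 for MLP vs C and 0.04 for MLP-F vs C, with 0 macrophage markers called in the latter. In MLP vs MLP-F 3 erythroid markers were lower (Ahsp, Car2 and Hemgn) and 2 higher (Alas2 and Hbe1), with a median of -0.12, and 2 macrophage markers were higher (C1qb and C1qc). There 1 of 5 megakaryocyte markers was lower (Vwf, list median -0.30), and 1 of 4 endothelial markers (Lyve1), 1 of 9 of neutrophils and their precursors (Ngp) and 1 of 9 of hepatocytes (Cps1) were higher. The part of these cells in the levels of the mitosis genes was not tested. No marker probe was listed at 0.

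**Figure D1:**
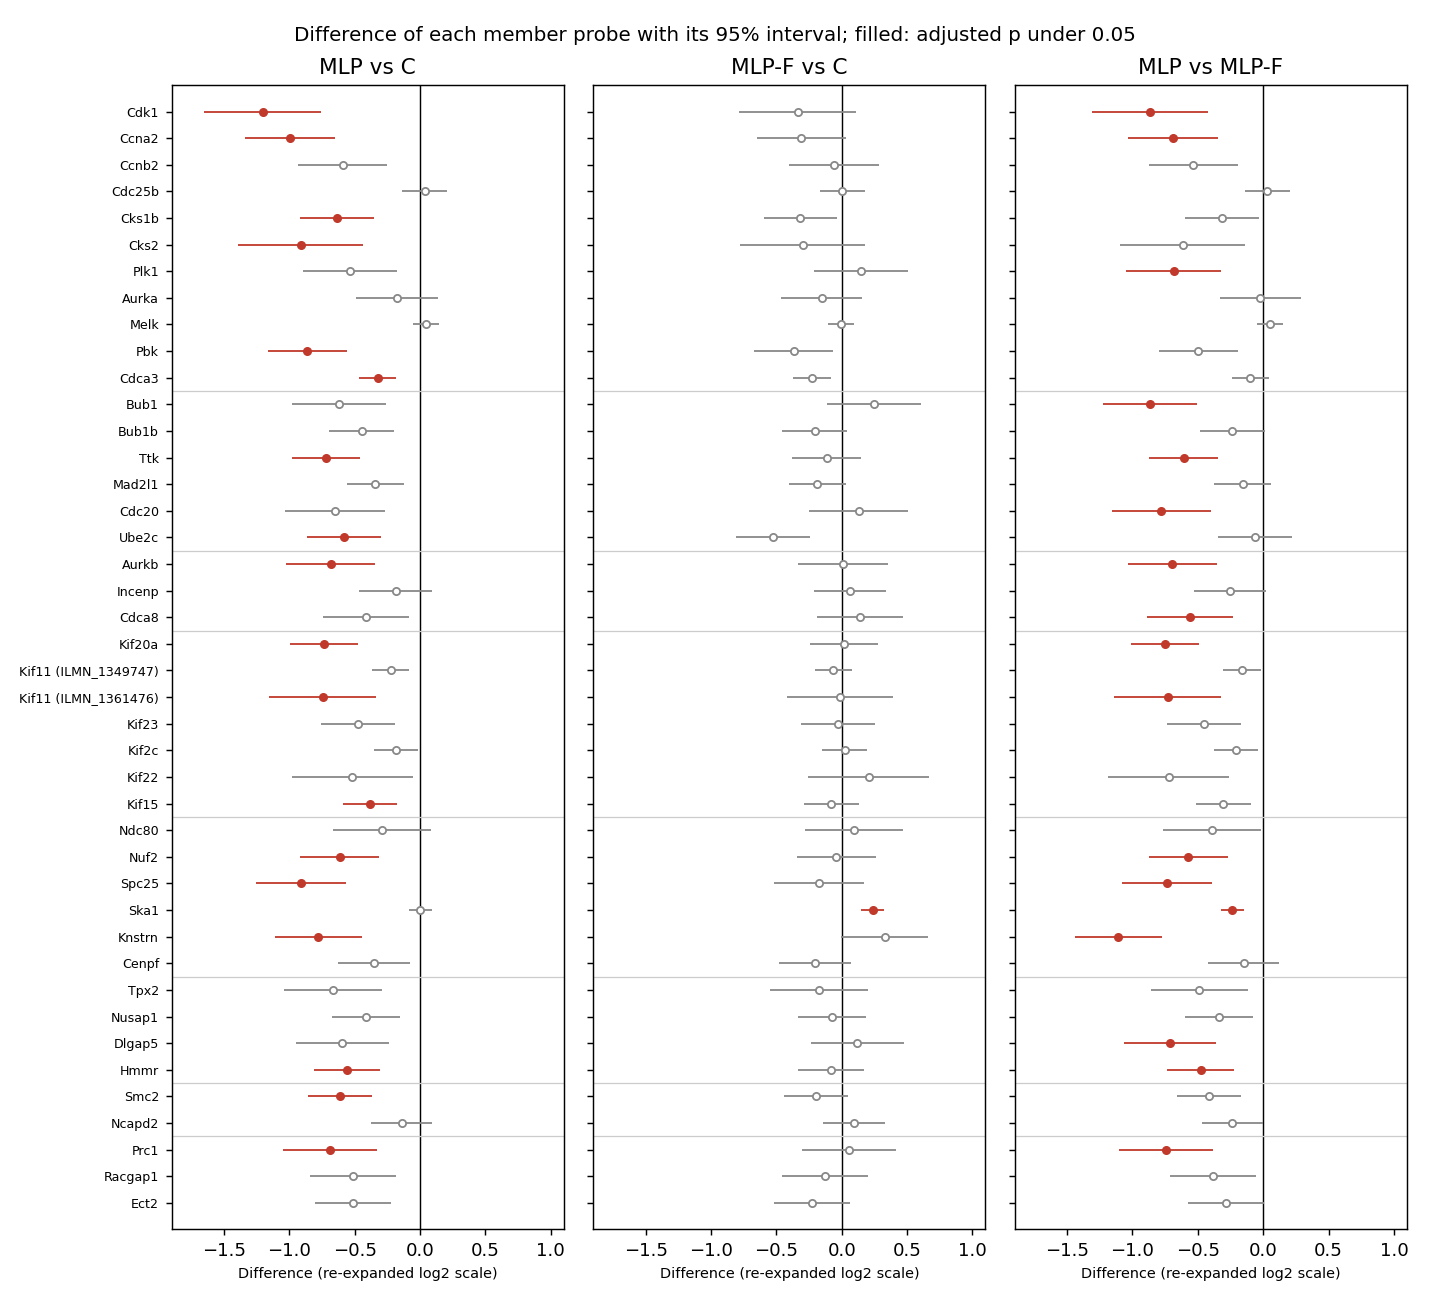
Difference of each of the 42 member probes between groups (x axis, re-expanded log2 scale) with its 95% interval from limma, in the order of the classes, with a panel for each comparison. Filled points have an adjusted p under 0.05. In MLP vs C, 40 points lie left of 0, and 18 are filled, while in MLP-F vs C a single point, Ska1, is filled, to the right.

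The comparisons of MLP-F ask what was left of this when the diet held more folic acid. Between MLP-F and C, 0 members were lower and 1, Ska1, was higher, where 0.292% and 0.19% of all probes were called. The median difference was -0.06, against 0.00 for all probes, and 5 members (11.9%) had an unadjusted p under 0.05, as did 14.9% of all probes. Between MLP and MLP-F, 17 members were lower in MLP (3.05% of all probes) and 0 higher (3.53%, for 6.58% in all), with a median difference of -0.47, against 0.00. All 4 MLP livers lay below all 4 MLP-F livers in 17 members, against 5.99% of all probes. MLP livers enter both comparisons in which the members fell, and each group enters 2 of the 3 comparisons, so their values are given side by side and not as independent results. The 17 calls ranged from 5 without MLP replicate 3, or without MLP-F replicate 1, to 26 without MLP-F replicate 3. Bub1, Ttk, Kif20a, Ska1 and Knstrn were called in each of the 12 fits. Cdca8 was called in 3, Kif11 in 5, and Plk1, Aurkb, Nuf2 and Hmmr in 6. Cdk1, Ccna2 and Dlgap5 were called in 7, and Cdc20, Spc25 and Prc1 in 8.

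The central mitotic kinase and a cyclin that binds it were both lower in MLP livers. Cdk1, the catalytic subunit, gave 3.45, 3.20, 3.45 and 3.22 in the C livers, 2.31, 2.00, 1.97 and 2.23 in the MLP livers and 2.90, 3.41, 2.31 and 3.35 in the MLP-F livers. The 4 MLP livers lay below all C livers, and MLP-F replicate 3 lay just above the highest of them. The difference in MLP vs C was the largest of all members there, -1.20 ± 0.20 (SE, adjusted p = 0.00965) or 2.30-fold. It was -0.34 ± 0.20 (0.486, interval -0.78 to 0.11) for MLP-F vs C and -0.87 ± 0.20 (0.0288) for MLP vs MLP-F. Ccna2, cyclin A2, gave 3.06, 2.90, 2.96 and 2.84 in C, 2.17, 1.86, 1.85 and 1.88 in MLP and 2.62, 3.06, 2.13 and 2.71 in MLP-F. MLP and C did not overlap, while MLP-F replicate 3 lay between the MLP livers. The difference was -0.996 ± 0.16 (0.00747) for MLP vs C and -0.69 ± 0.16 (0.0248) for MLP vs MLP-F. Without MLP-F replicate 4 the Cdk1 call in MLP vs MLP-F was lost (0.0824), and so was that of Ccna2 without MLP replicate 3 (0.0701).

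Among the other genes of this class 4 fell in MLP vs C and 5 did not pass the test. Pbk, a mitotic protein kinase, gave 1.26, 1.11, 1.41 and 1.38 in C, 0.49, 0.40, 0.22 and 0.59 in MLP and 0.78, 1.31, 0.60 and 1.00 in MLP-F. Of the MLP-F livers 3 lay below every C liver and all 4 above every MLP liver. The difference was -0.86 ± 0.14 (adjusted p = 0.00817) for MLP vs C, -0.37 ± 0.14 (0.232) for MLP-F vs C and -0.50 ± 0.14 (0.0579) for MLP vs MLP-F. Cks1b and Cks2, small subunits that bind cyclin-dependent kinases, fell by 0.63 and 0.91 in MLP vs C (0.0204 and 0.0401), and Cdca3, a cell division cycle associated protein, fell by 0.33 (0.0197). Without 1 liver their highest adjusted p were 0.0614 and 0.114 (both without MLP replicate 2) and 0.0601 (without MLP replicate 4). Ccnb2, a B-type cyclin, and Plk1, the polo-like kinase of centrosomes and kinetochores, had -0.59 (0.0585) and -0.54 (0.102), with no overlap of MLP and C in either. Plk1 was called in MLP vs MLP-F, with -0.68 (0.0325), a call lost without MLP-F replicate 4 (0.0888). Aurka, the centrosomal Aurora kinase, Cdc25b, a phosphatase that activates Cdk1, and Melk, a protein kinase, overlapped in all comparisons, with -0.18, 0.04 and 0.05 in MLP vs C. Melk gave 0.21, 0.15, 0.14 and 0.19 in C, 0.16, 0.26, 0.31 and 0.15 in MLP and 0.14, 0.16, 0.24 and 0.13 in MLP-F. It was dim in all livers, and its difference in MLP vs C was the highest of all members there, with an interval of -0.05 to 0.15.

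**Figure D2:**
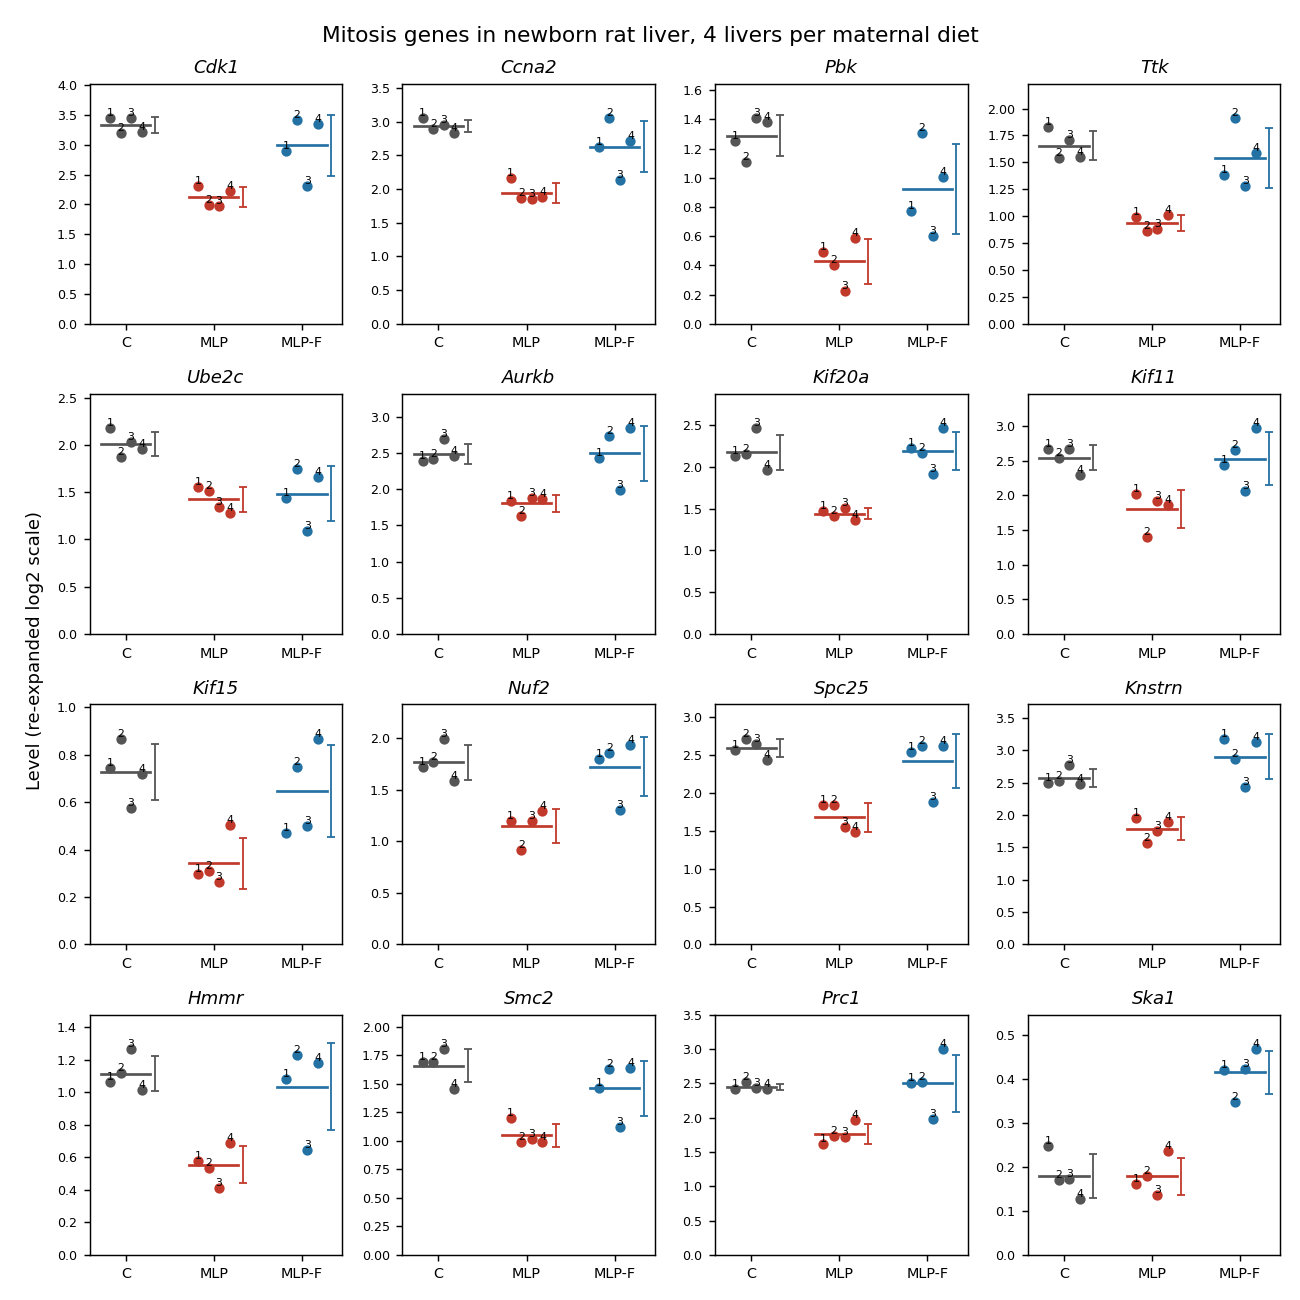
Level of 16 member genes in each liver (y axis, re-expanded log2 scale, starting at 0) for C, MLP and MLP-F, with the replicate number above each point. Horizontal lines are group means and bars to the right are 1 SD (n = 4). MLP livers lie below all C livers in every panel but Ska1, and MLP-F replicate 3 is often the lowest of its group.

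Genes of the spindle checkpoint and of anaphase control had lower means in MLP in all 6 cases. In all 6 the 4 MLP livers lay below the 4 C livers (6.06% of all probes), although only Ttk and Ube2c passed the test. Ttk, the kinase Mps1 that starts checkpoint signalling, gave 1.83, 1.54, 1.70 and 1.55 in C, 0.99, 0.86, 0.88 and 1.01 in MLP and 1.38, 1.91, 1.28 and 1.59 in MLP-F. Every MLP liver lay below every liver of the other groups. The difference was -0.72 ± 0.12 (adjusted p = 0.00916) for MLP vs C and -0.61 ± 0.12 (0.0131) for MLP vs MLP-F. Ube2c, the ubiquitin-conjugating enzyme of the anaphase-promoting complex, gave 2.17, 1.87, 2.03 and 1.95 in C, 1.56, 1.51, 1.34 and 1.28 in MLP and 1.44, 1.74, 1.09 and 1.67 in MLP-F. Here the MLP and MLP-F means were 1.42 and 1.48, and neither group overlapped C. MLP-F replicates 2 and 4 lay above all MLP livers and replicate 3 below them. MLP vs C gave -0.58 ± 0.13 (0.0290) and MLP-F vs C -0.52 ± 0.13 (0.0941). Between the low protein groups the difference was -0.06 ± 0.13 (0.874), with an interval of -0.34 to 0.22. Ube2c lost its call in MLP vs C without MLP replicate 4 (0.0819). Among the 42 member probes it was the single one in which MLP-F lay wholly below C, as did 3.14% of all probes.

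Bub1b, the checkpoint protein BubR1, gave 0.86, 0.78, 1.11 and 0.86 in C, 0.63, 0.36, 0.42 and 0.42 in MLP and 0.48, 0.74, 0.54 and 1.02 in MLP-F. MLP-F replicates 1 and 3 lay among the MLP livers, and the difference of -0.45 ± 0.11 in MLP vs C had an adjusted p of 0.0514. Mad2l1, the Mad2 protein that holds back Cdc20, had -0.34 (0.0803). Bub1, the kinase that brings checkpoint proteins to kinetochores, and Cdc20, the activator of the anaphase-promoting complex, had -0.62 (0.0583) and -0.65 (0.0603) in MLP vs C. Their MLP-F means lay above those of C, by 0.24 (0.534) and 0.13 (0.785), and MLP vs MLP-F gave -0.87 ± 0.16 (0.0109) and -0.78 ± 0.17 (0.0219). The Cdc20 call was lost without MLP replicate 3 (0.0669).

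In the chromosomal passenger complex, which corrects faulty attachments, the kinase fell in MLP and the scaffold did not pass the test. Aurkb, the Aurora kinase of the complex, gave 2.38, 2.41, 2.69 and 2.46 in C, 1.84, 1.63, 1.88 and 1.86 in MLP and 2.42, 2.73, 1.99 and 2.84 in MLP-F. All MLP livers lay below all others, and the C and MLP-F means were 2.49 and 2.50 (interval of the difference -0.33 to 0.35). MLP vs C gave -0.68 ± 0.16 (adjusted p = 0.0331) and MLP vs MLP-F -0.69 ± 0.16 (0.0235), calls that were lost without MLP replicate 2 (0.100 and 0.0713). Cdca8, borealin, gave 2.36, 2.52, 2.90 and 2.63 in C, 2.33, 2.22, 1.96 and 2.25 in MLP and 2.83, 2.66, 2.40 and 3.09 in MLP-F. MLP lay below both groups without overlap, by a narrow margin to C. The differences were -0.41 ± 0.15 (0.168) for MLP vs C and -0.56 ± 0.15 (0.0497) for MLP vs MLP-F, the latter lost without MLP replicate 3 (0.135). Incenp, the scaffold, gave 0.83, 0.87, 1.34 and 1.01 in C, 0.73, 0.75, 1.05 and 0.75 in MLP and 1.36, 0.97, 0.94 and 1.03 in MLP-F. All 3 groups overlapped, and MLP vs C was -0.19, with an interval of -0.46 to 0.09.

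Kinesins, motors that move along microtubules, had negative differences for all 7 probes in both comparisons of MLP. Of all 15753 probes, 7608 were negative in MLP vs C and 7978 in MLP vs MLP-F. Kif20a, which carries the passenger complex to the central spindle, gave 2.13, 2.15, 2.46 and 1.96 in C, 1.48, 1.41, 1.51 and 1.37 in MLP and 2.23, 2.17, 1.91 and 2.46 in MLP-F. MLP livers were close to each other (SD 0.06, n = 4) and below all other livers. The difference was -0.73 ± 0.12 (adjusted p = 0.00817) for MLP vs C, 0.02 ± 0.12 (0.969) for MLP-F vs C and -0.75 ± 0.12 (0.00474) for MLP vs MLP-F, and without both C replicates 1 and 4 MLP vs C was -0.86 (0.0277). Kif11, the motor that pushes spindle poles apart, gave 2.68, 2.54, 2.68 and 2.30 in C, 2.03, 1.40, 1.91 and 1.87 in MLP and 2.44, 2.66, 2.06 and 2.97 in MLP-F with its brighter probe. MLP replicate 2 was the lowest, and no MLP liver reached another group. MLP vs C gave -0.75 ± 0.19 (0.0473) and MLP vs MLP-F -0.73 ± 0.19 (0.0381), both lost without MLP replicate 2 (0.123 and 0.0999). The dimmer probe of Kif11 lay between 0.15 and 0.51, with the MLP livers again below all C livers, and was not called (-0.23, 0.0801).

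Kif15, which works beside Kif11, gave 0.75, 0.87, 0.58 and 0.72 in C, 0.30, 0.31, 0.26 and 0.50 in MLP and 0.47, 0.75, 0.50 and 0.87 in MLP-F. MLP lay below C, with MLP replicate 4 highest and within the MLP-F range. MLP vs C was -0.38 ± 0.10 (0.0473), a call lost without MLP replicate 2 (0.120), and MLP vs MLP-F was -0.30 ± 0.10 (0.0884). Kif23, a part of centralspindlin, had -0.48 (0.0637) with no overlap of MLP and C. Kif2c, which takes microtubule ends apart, and Kif22, a kinesin on chromosome arms, overlapped, with -0.18 (0.244) and -0.52 (0.227). Kif22 had a larger difference in MLP vs MLP-F, -0.72 (0.0687), with all MLP livers below the MLP-F livers.

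The kinetochore genes held both the sharpest fall against MLP-F and the single member called in MLP-F vs C. Spc25 and Nuf2 belong to the Ndc80 complex, which grips microtubules. Spc25 gave 2.57, 2.72, 2.64 and 2.44 in C, 1.84, 1.85, 1.56 and 1.48 in MLP and 2.54, 2.63, 1.89 and 2.63 in MLP-F, so that MLP-F replicates 1, 2 and 4 lay among the C livers and replicate 3 just above the MLP livers. MLP vs C was -0.91 ± 0.16 (adjusted p = 0.0104) and MLP vs MLP-F -0.74 ± 0.16 (0.0181), the latter lost without MLP replicate 3 (0.0567). Nuf2 gave 1.72, 1.77, 1.99 and 1.58 in C, 1.19, 0.91, 1.19 and 1.30 in MLP and 1.80, 1.86, 1.31 and 1.94 in MLP-F. It had the same arrangement, with -0.62 ± 0.14 (0.0304) and -0.57 ± 0.14 (0.0318), lost without MLP replicate 2 (0.0900) and without MLP-F replicate 4 (0.0895). Ndc80, the namesake subunit, overlapped between groups, with -0.30 (0.431) and -0.39 (0.236).

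Knstrn, a small protein of kinetochores and spindle, gave 2.50, 2.53, 2.77 and 2.48 in C, 1.96, 1.56, 1.75 and 1.89 in MLP and 3.18, 2.86, 2.43 and 3.13 in MLP-F. MLP livers were the lowest, and 3 of the 4 MLP-F livers lay above every C liver. Against MLP-F the difference of -1.11 ± 0.15 (0.00248) was the largest of the members, against C it was -0.78 ± 0.15 (0.0166), lost without MLP replicate 2 (0.0550), and MLP-F vs C gave 0.33 ± 0.15 (0.340). Ska1, of the complex that follows shrinking microtubule ends, gave 0.25, 0.17, 0.17 and 0.13 in C, 0.16, 0.18, 0.14 and 0.24 in MLP and 0.42, 0.35, 0.42 and 0.47 in MLP-F. C and MLP had the same mean, 0.18, and all 4 MLP-F livers lay above them. MLP-F vs C gave 0.24 ± 0.04 (0.0390) and MLP vs MLP-F -0.24 ± 0.04 (0.00714). This probe was dim, near the level of 0.158 below which probes were left out, and its call against C was made in 3 of the 12 fits with 1 liver less, with the highest adjusted p, 0.129, without C replicate 4. Cenpf, a large kinetochore protein, had -0.35 (0.159) in MLP vs C.

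**Figure D3:**
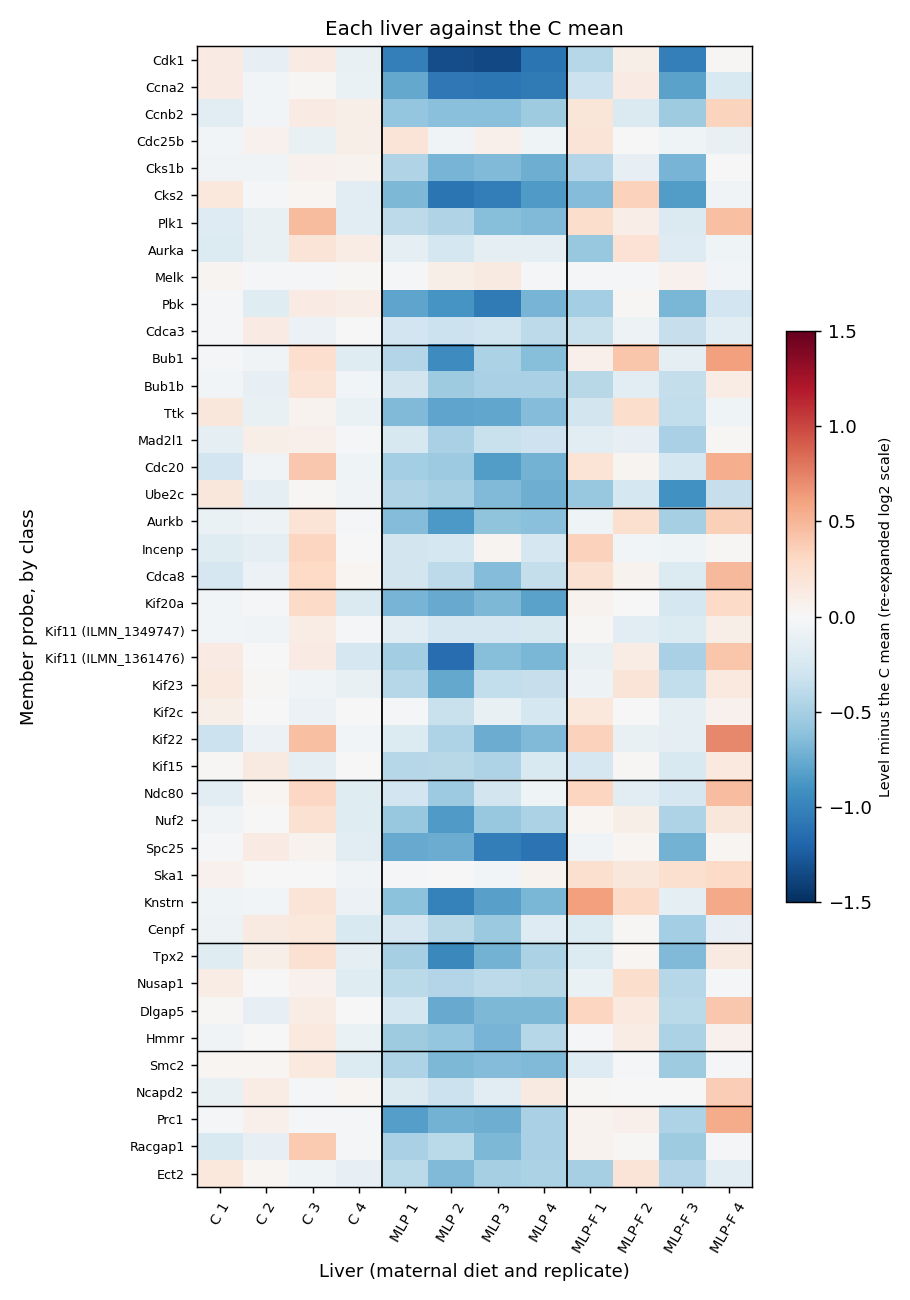
Level of each of the 42 member probes in each of the 12 livers minus the mean of the C livers (colour, re-expanded log2 scale, blue below and red above). Rows are ordered by class, with lines between classes, and columns by diet and replicate. The 4 MLP columns are blue for nearly all genes, MLP-F replicate 3 is blue for many, and Ska1 is red in all 4 MLP-F columns.

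Proteins that organise spindle microtubules had negative differences in all 4 cases. In all 4 the MLP livers lay below the C livers without overlap (6.06% of all probes). Hmmr, a microtubule protein of spindle poles, gave 1.06, 1.11, 1.26 and 1.02 in C, 0.58, 0.54, 0.41 and 0.69 in MLP and 1.08, 1.23, 0.64 and 1.18 in MLP-F. MLP-F replicate 3 stood among the MLP livers and the other 3 among the C livers. MLP vs C was -0.56 ± 0.12 (adjusted p = 0.0217) and MLP vs MLP-F -0.48 ± 0.12 (0.0333), both lost without MLP replicate 3 (0.0676 and 0.094). Tpx2, which activates Aurora A on the spindle, gave 3.04, 3.31, 3.45 and 3.09 in C, 2.72, 2.25, 2.52 and 2.75 in MLP and 3.02, 3.25, 2.56 and 3.36 in MLP-F. Again MLP-F replicate 3 was with MLP, and the difference of -0.66 ± 0.17 in MLP vs C had an adjusted p of 0.0532. Dlgap5, which stabilises the fibres at kinetochores, gave 2.93, 2.78, 3.02 and 2.91 in C, 2.64, 2.16, 2.24 and 2.23 in MLP and 3.24, 3.06, 2.51 and 3.32 in MLP-F. MLP replicate 1 stood above the other MLP livers and above MLP-F replicate 3. It had -0.59 ± 0.16 (0.0647) for MLP vs C and -0.71 ± 0.16 (0.0238) for MLP vs MLP-F, lost without MLP replicate 2 (0.0715). Nusap1, another spindle protein, had -0.41 (0.0765) in MLP vs C.

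Both condensin subunits kept among the members had lower means in MLP, and 1 passed the test. Smc2, the ATPase shared by the condensins, gave 1.69, 1.69, 1.80 and 1.45 in C, 1.20, 0.99, 1.01 and 0.99 in MLP and 1.46, 1.63, 1.12 and 1.63 in MLP-F. MLP did not overlap C, and MLP-F replicate 3 lay within MLP. The differences were -0.61 ± 0.11 (adjusted p = 0.0127) for MLP vs C, -0.20 ± 0.11 (0.457) for MLP-F vs C and -0.41 ± 0.11 (0.0518) for MLP vs MLP-F, and without both C replicates 1 and 4 MLP vs C was -0.70 (0.0443). Ncapd2, of condensin I, gave 0.54, 0.76, 0.62 and 0.69 in C, 0.44, 0.33, 0.49 and 0.79 in MLP and 0.67, 0.65, 0.66 and 1.02 in MLP-F. The fourth liver was the highest of MLP and of MLP-F, the groups overlapped, and MLP vs C was -0.14 (-0.38 to 0.09).

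Of the cytokinesis genes, all 3 had MLP livers wholly below C livers (6.06% of all probes). Prc1, which bundles microtubules at the midzone, gave 2.42, 2.52, 2.43 and 2.42 in C, 1.62, 1.74, 1.71 and 1.97 in MLP and 2.51, 2.53, 1.98 and 3.00 in MLP-F. The C livers were almost equal, and MLP-F spread from just above MLP to above all C livers. MLP vs C was -0.69 ± 0.16 (adjusted p = 0.0401) and MLP vs MLP-F -0.74 ± 0.16 (0.0213), lost without MLP replicate 2 (0.102) and without MLP replicate 3 (0.0603). Racgap1, the partner of Kif23 in centralspindlin, gave 0.87, 0.97, 1.49 and 1.07 in C, 0.62, 0.70, 0.43 and 0.61 in MLP and 1.15, 1.12, 0.57 and 1.07 in MLP-F. Ect2, which switches on RhoA at the cleavage site, gave 1.05, 0.93, 0.83 and 0.76 in C, 0.48, 0.23, 0.39 and 0.41 in MLP and 0.39, 1.08, 0.46 and 0.73 in MLP-F. MLP-F replicate 3 lay in the MLP range in both, as did MLP-F replicate 1 for Ect2. Neither passed the test in MLP vs C, with -0.51 ± 0.15 (0.0844) for Racgap1 and -0.51 ± 0.13 (0.0537) for Ect2.

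The MLP-F livers were spread out, with replicate 3 mostly the lowest and replicate 4 often the highest. MLP-F replicate 3 had the lowest level of the 4 MLP-F livers in 34 of the 42 member probes (80.95%, against 23.80% of all probes), and it lay below the lowest C liver in 32 (76.19%, against 25.58%). In 25 members it was at or below the highest MLP liver, against 9, 5 and 3 for replicates 1, 2 and 4. Its median deviation from the C mean over the members was -0.39, where the other MLP-F livers had -0.04, 0.03 and 0.08, the MLP livers -0.44, -0.56, -0.63 and -0.48, and the C livers -0.05 to 0.12. The 4 MLP livers thus lay close together and the MLP-F livers did not, with a median SD over members of 0.134 in C, 0.137 in MLP and 0.287 in MLP-F, against 0.0858, 0.0834 and 0.0976 over all probes. Without MLP-F replicate 3 the median of the members was 0.04 for MLP-F vs C, with 0 calls among members and 1 over all probes, and -0.58 for MLP vs MLP-F, with 26 calls. MLP-F replicate 4 was the highest MLP-F liver in 23 of the 42 (54.8%, against 23.3% of all probes). C replicate 3 was the highest C liver in 24 of the 42 (57.1%, against 29.3% of all probes).

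Class medians lay on both sides of 0 within MLP-F replicates 1, 2 and 4. In MLP-F replicate 1 the median deviation from C was -0.33 for the cyclins, kinases and their partners and -0.22 for the checkpoint and anaphase genes, while it was 0.22 for the passenger complex and 0.14 for the kinetochore. They ran from -0.04 for the checkpoint and anaphase genes to 0.13 for the spindle microtubule proteins in replicate 2, and from -0.06 for the cyclins and kinases to 0.35 for the passenger complex in replicate 4. Replicate 3 was below C in all 8 classes, from -0.53 for the cyclins and kinases to -0.20 for the passenger complex. Over the MLP-F group the class medians for MLP-F vs C ran from -0.23 for the cyclins and kinases to 0.06 for the passenger complex. Without MLP-F replicate 2, 5 members were called in MLP-F vs C, namely Ect2 (-0.37), Cdca3 (-0.28), Ube2c (-0.61) and Pbk (-0.50) as lower and Ska1 (0.26) as higher, with 5.97% of all probes called.

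**Figure D4:**
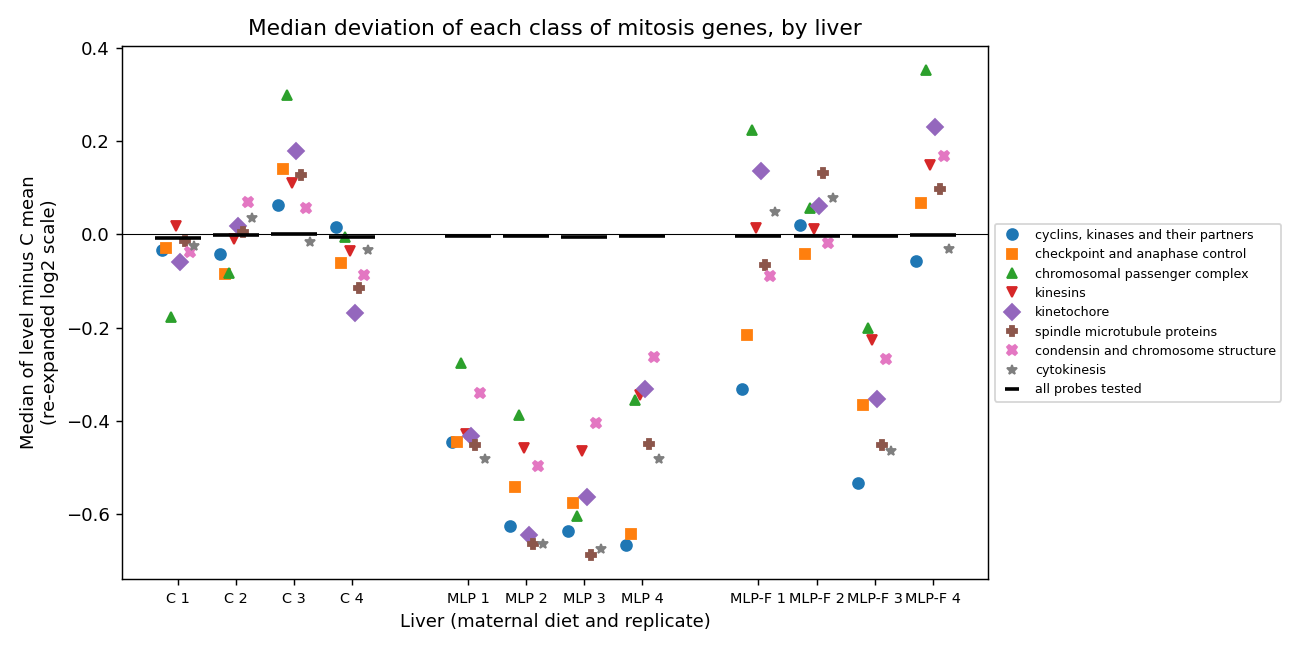
Median deviation from the C mean (y axis, re-expanded log2 scale) of each of the 8 classes of mitosis genes in each liver (x axis, diet and replicate), with a bar for the median of all probes tested. All 8 class medians are below 0 in the 4 MLP livers and in MLP-F replicate 3, and in MLP-F replicates 1, 2 and 4 they lie on both sides of 0.

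A wider list of 128 other genes of mitosis, also chosen by function, had a median nearer to 0. Both lists were chosen with earlier results of these data known, so the gap between them may reflect that choice. Of these, 84 had a probe and 75 were kept, with 78 probes. In MLP vs C 12 were lower (15.4%, against 2.08% of all probes) and 1 was higher (2.27% of all probes), with a median of -0.13. Without both C replicates 1 and 4 the median was -0.14, and 1 probe, that of Spag5, stayed lower (adjusted p = 0.0304) and 0 higher. In MLP-F vs C 0 were called in limma, with 4 (5.13%) at an unadjusted p under 0.05, against 14.9% of all probes. In MLP vs MLP-F 9 were lower (11.5%, against 3.05% of all probes) and 1 higher (3.53% of all probes). Those that fell in MLP vs C included Kntc1 (-0.68), of the complex that brings dynein to kinetochores, Cenpk (-0.79), of the inner kinetochore, Stmn1 (-0.74), which destabilises microtubules, Nde1 (-0.71), a dynein partner, Aspm (-0.72), of spindle poles, and Spag5 (-0.48), the partner of Knstrn at kinetochores. They also included Smc3 (-0.43), of cohesin, Fbxo5 (-0.60), an inhibitor of the anaphase-promoting complex, and Wee1 (-0.59), Pkmyt1 (-0.44) and Mastl (-0.34), kinases that set the timing of Cdk1 activity and of its reversal. Ncapd3, of condensin II, fell by 0.38 with 1 probe and had -0.03 with the other, which was not called. Of these 12 calls, those of Kntc1, Nde1 and Stmn1 were made in each of the 12 fits with 1 liver less. The highest adjusted p came without MLP replicate 2 for Cenpk and Spag5 (both 0.0504), Fbxo5 (0.0831), Wee1 (0.0856), Smc3 (0.129) and Pkmyt1 (0.130), without MLP replicate 4 for Aspm (0.0655) and Mastl (0.128), and without C replicate 1 for Ncapd3 (0.0901). The Smc3, Pkmyt1, Ncapd3 and Mastl calls were the least often made, in 2, 3, 4 and 5 of the 12 fits.

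Mad2l1bp went the other way, as the 1 wider-list probe called higher in MLP vs C, where 2.27% of all probes were called higher. This protein, p31comet, helps to silence the checkpoint, and it gave 2.34, 2.23, 2.34 and 2.30 in C, 2.58, 2.90, 2.64 and 3.08 in MLP and 2.19, 2.19, 2.24 and 2.08 in MLP-F. All MLP livers lay above all C livers, as in 6.18% of all probes, and above all MLP-F livers, as in 6.0%. The differences were 0.50 ± 0.09 (adjusted p = 0.0146) for MLP vs C and 0.62 ± 0.09 (0.00396) for MLP vs MLP-F. Its call in MLP vs C was lost without MLP replicate 2 (0.0510). Foxm1 and Mybl2, transcription factors known to act on promoters of mitosis genes, had -0.12 (0.781) and -0.16 (0.635) in MLP vs C. Neither was called, which does not show that their levels were equal. By sub-list, 2 of 17 centromere and kinetochore probes, 4 of 17 kinesin and spindle probes and 2 of 10 cohesin and condensin probes were lower in MLP vs C. So were 1 of 14 probes of the anaphase-promoting complex and 3 of 20 probes of kinases, phosphatases and regulators. Of all probes 2.08% were lower there, and of the members 18 of 42.

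**Figure D5:**
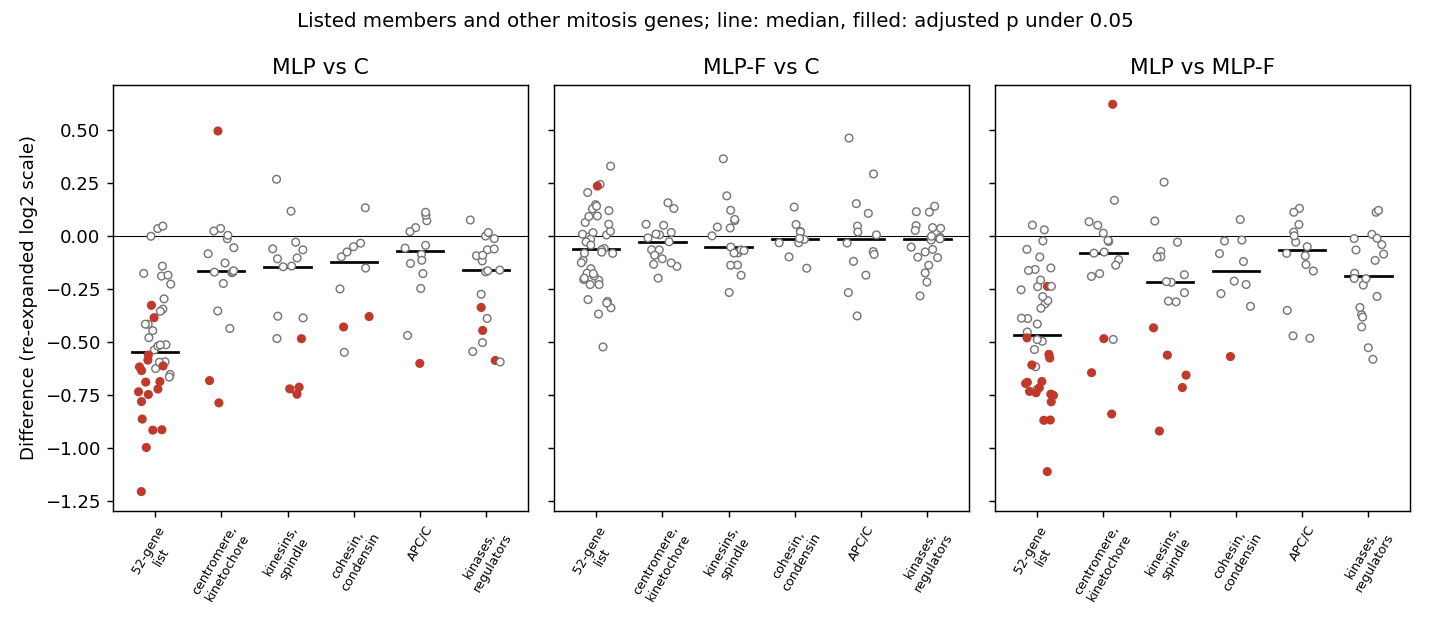
Difference of each probe (y axis, re-expanded log2 scale) for the 52-gene list and for 5 sub-lists of other mitosis genes, in the 3 comparisons. Lines are medians and filled points have an adjusted p under 0.05. In MLP vs C the median of the members is -0.55 and that of all other mitosis genes together is -0.13, with Mad2l1bp as the single filled point above 0.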

How the data were processed

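Liver RNA of 12 male pups was hybridised to RatRef-12 BeadChips, 4 per diet. According to the methods, bead data were processed by the authors in beadarray and limma with quantile normalization, and they deposited log2 values of 22505 probes between 4.00 and 4.63. These were re-expanded by raising 2 to each value and subtracting 16 (0.047 to 8.82), a reading inferred from the values. A second deposited table held 12 columns named by chip and position, which were not matched to samples and not used. The number of arrays limits the precision.

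Symbols came from the platform annotation, updated through Entrez identifiers with RefSeq GRCr8 (13778 probes with 1 symbol, 0 with several and 8727 with none, and 40 identifiers not found). Probes whose mean exceeded the 30th percentile (0.158), 15753 in all, were fitted in limma 3.58.1 and R 4.3.3 (lmFit, contrasts.fit, eBayes) with all 12 samples, 3 two-sided contrasts and 9 residual degrees of freedom, and Benjamini-Hochberg adjustment over all of them. The fit was tested on simulated data with independent noise of equal spread in all groups, and the outcome is not given here. Bracketed values beside a difference are these adjusted p-values unless named otherwise, and intervals are 95%.

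Members and lists were chosen with earlier results of these data known. Described with all 12 values were the 3 probes of each class with the lowest p between MLP and C, members called in MLP-F vs C and those with the largest change either way. Mad2l1bp, the single other mitosis gene called higher, was singled out after its values were seen. Foxm1 and Mybl2 were named from the wider list without regard to their p. Alternatives covered the scale, the filter, added quantile normalization, the prior (trend, robust), array weights, the samples fitted, a replicate block, each liver left out in turn, and C replicates 1 and 4 left out together.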

Additional observations from a re-analysis of the deposited data

Results flagged for a closer look

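Some livers stood away from the other 3 of their group in a single gene, by Dixon's test of the gap to the nearest liver over the group's range at the 95% level. This held in 13 of 186 groups of 4 (6.99%), where chance gives about 5% or 1 in 20, and no explanation was tested. Among MLP livers, replicate 1 was high for Ccna2 (2.17, others 1.85 to 1.88), Dlgap5 (2.64, others 2.16 to 2.24), Smc2 (1.20, others 0.99 to 1.01) and the dimmer Kif11 probe (0.246, others 0.148 to 0.164), and low for Ncapd3 (0.461, others 0.708 to 0.741). MLP replicate 3 was high for Incenp (1.05) and MLP replicate 2 low for Aurka (0.608). C replicate 3 was high for Plk1 (2.98, others 2.32 to 2.40) and Knstrn (2.77, others 2.48 to 2.53), and C replicate 2 for Prc1 (2.52). MLP-F replicate 3 was low for Spc25 (1.89, others 2.54 to 2.63) and Racgap1 (0.567, others 1.07 to 1.15), and MLP-F replicate 4 was high for Ncapd2 (1.02).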

How the results depend on the processing

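No called difference of a member changed sign under any alternative run. The 18 members called in MLP vs C became 2 without both C replicates 1 and 4 and 29 with only the groups compared in the fit, and 7 to 27 with 1 liver left out. The 1 call in MLP-F vs C became 0 with a filter at the 50th percentile, which Ska1 did not pass, with the replicate block, without both C replicates 1 and 4 and with only the groups compared, and 0 to 5 with 1 liver left out. The 17 calls in MLP vs MLP-F became 11 with the replicate block and 9 with only the groups compared, and 5 to 26 with 1 liver left out. Leaving out samples lowers the degrees of freedom. Other causes of these shifts were not tested. Over all probes, the 685 calls in MLP vs C became 211 without both C replicates 1 and 4, and the 76 calls in MLP-F vs C became 940 without MLP-F replicate 2 and 1 without MLP-F replicate 3. All other settings stayed within 1.5 times of these member counts, at 12 to 27 in MLP vs C, 1 in MLP-F vs C and 12 to 22 in MLP vs MLP-F.

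Replicate numbers are shared between groups, but same-numbered livers did not deviate together (correlations over probes -0.11 to 0.07 for MLP with C, -0.22 to 0.09 for MLP-F with C, -0.06 to 0.14 for MLP with MLP-F), so the numbers pair nothing. With the number as a replicate block 14, 0 and 11 members were called, in the same order. Depth is not defined for arrays, and dim probes such as those of Ska1, Melk and Ccnb1 have compressed differences.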
